A study of Mus musculus with 6 samples.

Results

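Krüppel-like factors (KLF) were followed in cyclically stretched C2C12 cells. The group consists of 10 genes, Klf2, Klf3, Klf4, Klf5, Klf6, Klf7, Klf9, Klf10, Klf11 and Klf13, taken by symbol from a deposited expression table of 22375 rows that lists 17 KLF genes in all. C2C12 is a mouse myoblast line, so the data describe 1 established line in culture and no diaphragm tissue. The control group (CON) was left unstretched. The 4H group underwent cyclic loading at 15% tension for 4 h, and the labels name no other treatment or genetic change for either group. The stretched cells grew on elastic plates coated with poly-lysine. Whether the CON cells did too is not stated in the labels or the methods, and if they did not, stretch and plate cannot be told apart. Each group has 3 libraries, called replicates 1 to 3 by the replicate numbers in the sample descriptions. The titles of the stretched libraries are numbered otherwise, and replicates 1, 2 and 3 are titled 4H1, 4H3 and 4H4. The labels call each library a replicate biosample but do not say whether these came from separate cultures. The p values therefore measure the spread between these libraries, which may be technical.

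Values are FPKM, a level scaled to transcript length and to the mapped fragments of a library, so genes can be compared within a library. FPKM keeps no fragment number, and the depth of the libraries is therefore unknown. FPKM summed to between 395790 and 397260 in the unstretched libraries and to between 385146 and 387516 in the stretched libraries. The test was limma on log2(FPKM + 0.5), run over the 11593 genes whose mean reached 0.5 FPKM, and log2 fold changes, or log2 differences, are 4H minus CON on that scale. A gene is said to have risen or fallen where its p, adjusted for all genes tested (Benjamini-Hochberg), was at most 0.05. The study's own threshold adds a log2 fold change of at least 1 in either direction. The cells carried myoblast transcripts, Des at a mean of 71.6 FPKM and Myf5 at 15.8 FPKM in the CON group, while Myog, a marker of differentiating myocytes, stayed below the filter. In such bulk RNA, fewer cells of a kind and less RNA per cell cannot be told apart. Tie1 and Erg of endothelium, Ptprc and Adgre1 of leukocytes, Epcam of epithelium and Plin1 of adipocytes were at 0 in all 6 libraries. Other leukocyte markers were present, Cd68 at means of 7.57 FPKM in the CON and 16.4 FPKM in the 4H group and Cd14 at 11.7 and 16.8 FPKM.

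KLF proteins bind GC-rich and CACCC sequences in promoters through C2H2 zinc fingers at the carboxyl end, and they differ in the region before the fingers that recruits partner proteins. By these partners the family is usually divided into repressors that bind CtBP (Klf3), factors that mostly activate transcription (Klf2, Klf4, Klf5, Klf6 and Klf7) and factors that bind the corepressor SIN3A (Klf9, Klf10, Klf11 and Klf13). Several are known as early responders to serum, shear stress or TGF-β, and in muscle the kinase ERK5 acts through Klf2 and Klf4 in myoblast fusion.

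Of the 10 genes, 5 rose in the 4H group (Klf10, Klf2, Klf7, Klf6 and Klf13), 2 fell (Klf9 and Klf4), and 3 did not pass the test (Klf3, Klf5 and Klf11). All 10 passed the filter on low values. Among all genes tested, 46.7% passed the same threshold, 22.6% in the upward and 24.1% in the downward direction. The study's thresholds on p and fold together were met by 0 of the 10 (7 at an unadjusted p under 0.05), against 3.88% of all genes tested. The CON and 4H libraries did not overlap in 7 of the 10, which is to be read against 56.7% of all genes tested. The median log2 fold change of the 10 was 0.14, and that of all genes tested was -0.01. With 3 libraries a side, the smallest two-sided exact permutation p is 0.1, and each of these 7 genes had it.

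**Figure D1:**
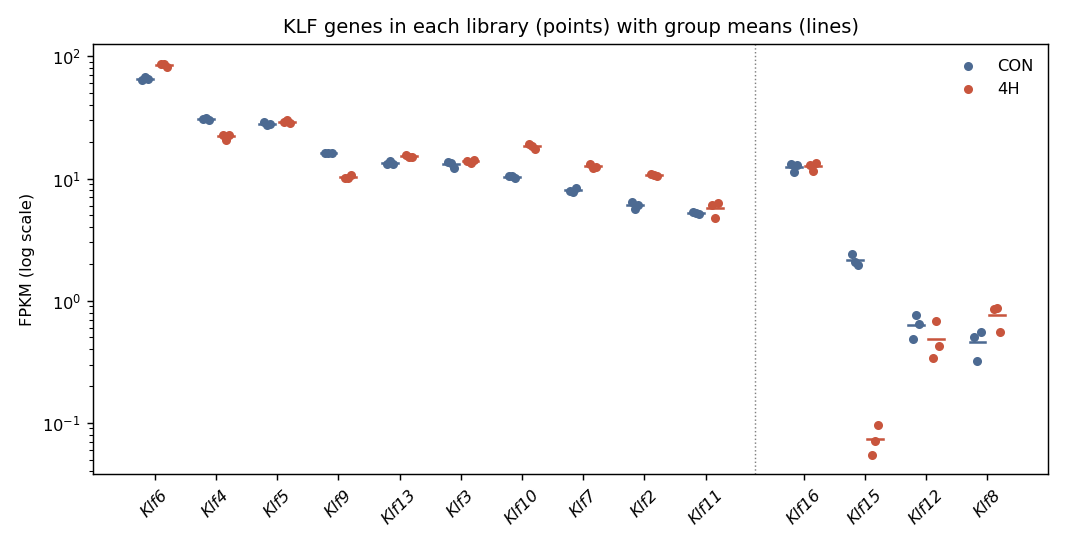
FPKM of the KLF genes on a log axis, with points for the 3 CON and 3 4H libraries and lines for group means. The 10 genes stand left of the dotted line in the order of their CON means, and 4 further KLF genes that passed the filter stand right of it. Klf6 lies highest in both groups, and Klf15 drops from about 2 FPKM to under 0.1 FPKM.

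The order of levels changed between the groups. In the CON group Klf6 stood first at 65.7 FPKM, followed by Klf4 at 30.6, Klf5 at 28.1, Klf9 at 16.2, Klf13 at 13.5, Klf3 at 13.1, Klf10 at 10.3, Klf7 at 8.03, Klf2 at 6.06 and Klf11 at 5.20 FPKM. Only Klf13 and Klf3 had overlapping library values among neighbours in this order. In the 4H group Klf6 led at 85.1 FPKM, before Klf5 at 29.1, Klf4 at 22.2, Klf10 at 18.5, Klf13 at 15.2, Klf3 at 13.9, Klf7 at 12.7, Klf2 at 10.7, Klf9 at 10.3 and Klf11 at 5.71 FPKM. Here only Klf2 and Klf9 overlapped. Klf10 moved from the seventh to the fourth place, and Klf9 from the fourth to the ninth. Klf6 was more abundant than 92.6% of the genes tested, whereas Klf11 was above only 27.5% of them.

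The summed level of the 10 genes was 196.7, 198.6 and 195.0 FPKM in the unstretched libraries and 226.5, 223.2 and 219.9 FPKM in the stretched libraries. Each stretched library exceeded each unstretched one, with a ratio of means of 1.13 (two-sided exact permutation p = 0.1, the smallest possible). Within this sum, Klf6 went from 33.4% ± 0.78 to 38.1% ± 0.91, Klf4 from 15.6% ± 0.04 to 9.94% ± 0.55 and Klf9 from 8.25% ± 0.04 to 4.60% ± 0.20 (SD, n = 3 libraries each). Klf10 took 5.25% ± 0.08 without and 8.26% ± 0.26 with stretch. The activators summed to 138.4 ± 0.68 FPKM without and 159.8 ± 3.00 FPKM with stretch, and the SIN3A-binding group to 45.2 ± 0.69 and 49.6 ± 1.28 FPKM.

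Klf2 and Klf4 are close relatives that laminar flow induces together in endothelium through the MEK5-ERK5-MEF2 pathway, and in the stretched myoblasts they moved in opposite directions. Klf2 (ENSMUSG00000055148, chr8:72319033-72321656 in GRCm38, as for all genes here, plus strand) was at 6.48, 5.67 and 6.02 FPKM in CON replicates 1 to 3 and at 10.8, 10.7 and 10.5 FPKM in 4H replicates 1 to 3. All 4H libraries were above all CON libraries, and the 4H values had an SD of 0.16 FPKM. The ratio of means was 1.76, and the log2 difference was 0.77 (standard error 0.065, adjusted p = 3.64e-05, limma with Benjamini-Hochberg adjustment), a larger absolute change than that of 93.0% of the genes tested. Klf4 (ENSMUSG00000003032, chr4:55527143-55532466, minus strand), known from pluripotency and as a brake on smooth muscle genes and the cell cycle, was at 30.6, 31.0 and 30.3 FPKM in the unstretched libraries. It was at 22.9, 20.8 and 22.9 FPKM in the stretched libraries, all of them lower than any CON library. Its log2 difference was -0.46 (standard error 0.05, adjusted p = 0.000116 by limma).

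The ratio of the pair shows this exchange without any scaling between libraries. Klf2 stood at 0.212, 0.183 and 0.199 times the FPKM of Klf4 in the unstretched libraries and at 0.474, 0.512 and 0.460 times in the stretched libraries. The log2 ratio differed by 1.29 between the groups, the largest shift among the 5 pairs compared (two-sided exact permutation p = 0.1, adjusted p = 0.1 over the 5 pairs).

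The upstream sequences of Klf2 and Klf4 are printed because this pair moved in opposite directions. The letters are the 250 bases before the transcription start in RefSeq, build GRCm38.p6 (mm10), 5′ to 3′ on the strand of the gene. Gene positions in the text come from another annotation, GENCODE M21, and the starts of the 2 differ for some genes. The Klf2 window runs past the GENCODE start at 72319033, and the Klf7 window lies wholly within the GENCODE gene. Motif distances are counted from the RefSeq start. Capitals mark matches on either strand to the motifs searched, which were the GC box GGGCGG, the motif CACCC, the CRE TGACGTCA, the AP-1 site TGANTCA, the SMAD element CAGACA, the TEAD element GGAATG, the E-box CACGTG, the CArG box and the MEF2 box.
Klf2 promoter, chr8:72318812-72319061, plus strand: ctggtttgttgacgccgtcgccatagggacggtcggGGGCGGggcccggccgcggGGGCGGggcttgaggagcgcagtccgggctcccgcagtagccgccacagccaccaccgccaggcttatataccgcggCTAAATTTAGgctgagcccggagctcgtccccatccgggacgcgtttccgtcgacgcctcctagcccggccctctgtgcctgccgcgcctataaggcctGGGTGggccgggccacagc
Klf4 promoter, chr4:55532476-55532725, minus strand: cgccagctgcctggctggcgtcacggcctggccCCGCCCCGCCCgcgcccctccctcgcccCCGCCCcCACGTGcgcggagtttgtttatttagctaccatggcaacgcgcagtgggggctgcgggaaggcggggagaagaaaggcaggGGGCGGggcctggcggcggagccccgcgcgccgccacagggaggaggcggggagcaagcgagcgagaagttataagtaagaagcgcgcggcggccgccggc

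In the Klf2 promoter the capitals at -118 are a MEF2 box, the binding sequence of the MEF2 factors on which ERK5 acts. Such a box was found in 1 of the 9 KLF promoters scanned (those of Klf2, Klf3, Klf4, Klf6, Klf7, Klf9, Klf11, Klf13 and, beside the 10 genes, Klf15) and in 0.508% of all 32851 promoter windows of that length. The window of Klf4 holds no MEF2 box. It has 4 GC boxes, among them a pair that overlap by 1 base, and an E-box at -182. Of the 9 windows, 8 held a GC box, against 32.7% of all windows, and 6 held CACCC, against 52.0%. GC content was 71.2% for Klf2 and 74.0% for Klf4, with a median of 52.4% over all windows. A match is only a run of letters, and binding was not measured.

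Upstream of Klf2 and Klf4, 8 genes of the MEKK-MEK5-ERK5-MEF2 pathway were examined and 7 could be tested. Of these, 2 rose, 1 fell and 4 did not pass, with a median log2 fold change of 0.10. As for every list below, the counts are to be read against all genes tested, 22.6% of which rose and 24.1% fell. Map3k2, the kinase MEKK2 at the head of the cascade, rose from 11.3 ± 0.59 to 15.4 ± 0.43 FPKM (SD, n = 3), which is 0.43 on the log2 scale (adjusted p = 0.00039 by limma). Mef2a, a MEF2 transcription factor, rose from 19.0 ± 0.79 to 24.0 ± 2.49 FPKM, or by 0.32 on the log2 scale (adjusted p = 0.00757). Mapk7, which encodes ERK5 itself, was at 10.7 ± 0.85 and 11.4 ± 0.41 FPKM and did not pass (adjusted p = 0.259). Map2k5, the gene of MEK5, was the member that fell, by 0.29 on the log2 scale (adjusted p = 0.0277). Mef2c, with a CON mean of 0.43 FPKM, passed the filter only through the 4H group and is 1 of the 4 that did not pass the test. Mapk7, Map2k5 and Mef2c were picked once their values had been seen. Phosphorylation, by which this cascade works, is not visible in RNA levels.

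Of the other activators, Klf6 and Klf7 rose and Klf5 did not pass the test. Klf6 (ENSMUSG00000000078, chr13:5861482-5870394, plus strand), an early gene of tissue injury that is known to activate TGF-β pathway genes, was at 63.9, 67.3 and 65.9 FPKM in the unstretched libraries and at 85.9, 87.3 and 82.1 FPKM in the stretched libraries. The groups did not overlap, and the log2 difference was 0.37 (standard error 0.04, adjusted p = 8.1e-05 by limma). In FPKM this was the largest gain of the 10 genes. Klf7 (ENSMUSG00000025959, chr1:64029447-64122282, minus strand), best known from neurons and fat cell precursors, rose from 7.98, 7.73 and 8.37 FPKM to 13.2, 12.2 and 12.5 FPKM. The log2 difference was 0.63 (standard error 0.06, adjusted p = 6.19e-05). Exons of Klf7 overlap those of 2 genes on the other strand, and whether the counting used the strand is not given in the sources used here.

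Klf5 (ENSMUSG00000005148, chr14:99298691-99315036, plus strand), a factor of proliferating cells and of vascular remodelling, was at 29.0, 27.5 and 27.7 FPKM in the unstretched libraries and at 28.8, 30.3 and 28.2 FPKM in the stretched libraries. The groups overlapped, and the log2 fold change of 0.05 (95% interval -0.05 to 0.15) did not pass (adjusted p = 0.348 by limma). Klf5 went from 0.947, 0.887 and 0.914 times the FPKM of Klf4 in the unstretched libraries to 1.26, 1.46 and 1.24 times in the stretched libraries. Klf6 stood at 8.01, 8.71 and 7.87 times the FPKM of Klf7 in the unstretched libraries and at 6.49, 7.15 and 6.56 times in the stretched libraries. Neither ratio overlapped between the groups (two-sided exact permutation p = 0.1 for each).

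Klf6 is the most abundant of the 10, and its promoter is shown with the same marking.
Klf6 promoter, chr13:5861239-5861488, plus strand: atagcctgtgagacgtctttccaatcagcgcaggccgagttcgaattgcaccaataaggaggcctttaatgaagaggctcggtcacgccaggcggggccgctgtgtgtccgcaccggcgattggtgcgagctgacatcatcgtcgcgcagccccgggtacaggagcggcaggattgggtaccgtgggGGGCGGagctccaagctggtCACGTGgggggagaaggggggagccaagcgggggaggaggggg

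The Klf6 window holds 1 GC box, at -63, and an E-box at -43. E-boxes were present in 4 of the 9 KLF windows (Klf4, Klf6, Klf11 and Klf15) and in 6.02% of all windows. The CArG box, at which SRF binds, was in none of the 9 and in 1.47% of all windows. The CRE, in 1.55% of all windows, and the TEAD element, in 12.6%, were likewise in none of the 9. Enhancers and sites outside these 250 bases were not searched.

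**Figure D2:**
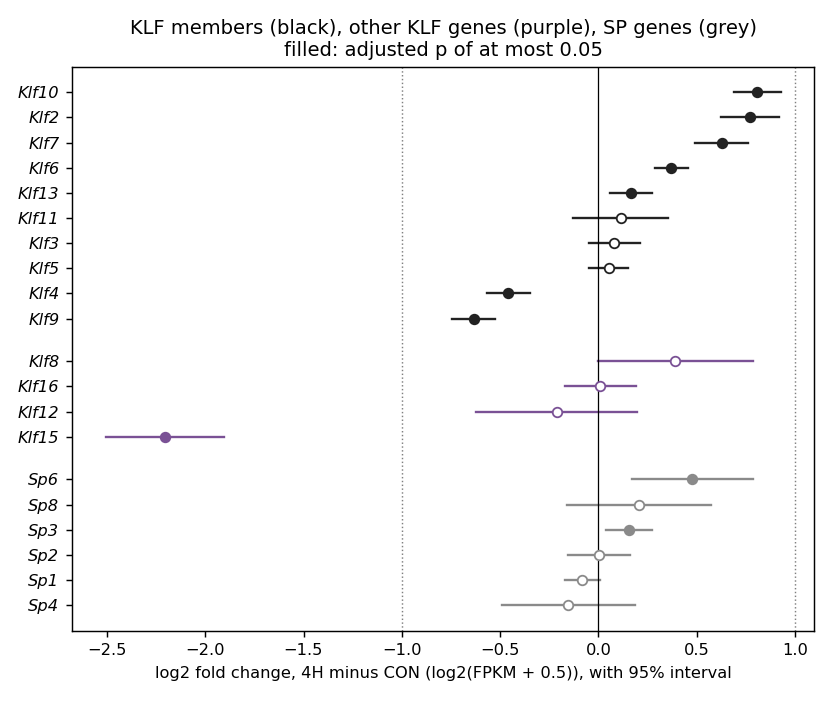
Log2 fold change (4H minus CON) with its 95% interval from limma for the 10 KLF genes (black), 4 other KLF genes (purple) and 6 SP genes (grey) that could be tested, with filled points at an adjusted p of at most 0.05 and dotted lines at 1 and -1. All 10 black points lie between the dotted lines, and Klf15 lies at -2.205.

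Among the SIN3A-binding factors, Klf10 had the largest rise and Klf9 the largest fall of the 10 genes on the log2 scale. Klf10 (ENSMUSG00000037465, chr15:38291463-38300706, minus strand), first described as a TGF-β-inducible early gene, was at 10.4, 10.5 and 10.1 FPKM in the unstretched libraries and at 19.2, 18.6 and 17.6 FPKM in the stretched libraries. Every 4H value was well above every CON value. The ratio of means was 1.79, and the log2 difference was 0.81 (standard error 0.05, adjusted p = 8.05e-06 by limma), with an absolute size above that of 93.6% of the genes tested. Klf11 (ENSMUSG00000020653, chr12:24651274-24662789, plus strand) is its closest relative and also responds to TGF-β in other cells. It was at 5.29, 5.19 and 5.13 FPKM in the unstretched libraries and at 6.13, 4.73 and 6.28 FPKM in the stretched libraries, so 4H replicate 2 lay below the CON range and the other two lay above it. The log2 difference was 0.11 (95% interval -0.13 to 0.36, adjusted p = 0.409), and without 4H replicate 2 it was 0.23 and passed (adjusted p = 0.040).

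Klf10 was 1.97, 2.02 and 1.96 times as abundant as Klf11 in the unstretched libraries and 3.14, 3.92 and 2.80 times in the stretched libraries. The log2 ratio rose by 0.71, with no overlap (two-sided exact permutation p = 0.1).

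Genes listed as early response and feedback genes of TGF-β were read beside Klf10, and TGF-β activity itself was not measured. Of 14 listed, 13 could be tested, of which 9 rose, 0 fell and 4 did not pass. The median log2 fold change was 0.75, and of all genes tested 22.6% rose and 24.1% fell. Ccn2, a secreted matrix regulator, rose by 2.66 on the log2 scale (adjusted p = 1.22e-07 by limma). Id1, an inhibitor of myogenic transcription factors, rose by 1.34 and Pmepa1, a membrane inhibitor of SMAD activation, by 1.15 (adjusted p of 2.09e-05 and 9.24e-07 by limma). Smad7, the inhibitory SMAD that Klf10 is known to repress, was also past both thresholds. It was at 9.54, 9.56 and 10.1 FPKM in the unstretched libraries and at 19.4, 19.65 and 21.01 FPKM in the stretched libraries (adjusted p = 2.56e-06, log2 fold change 1.005), and it was named after its value was seen.

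Klf9 (ENSMUSG00000033863, chr19:23141226-23168134, plus strand), which glucocorticoids and thyroid hormone are known to induce, was at 16.3, 16.3 and 16.05 FPKM in the unstretched libraries and at 10.1, 10.1 and 10.6 FPKM in the stretched libraries. The groups were far apart compared with their spread, with SDs of 0.15 FPKM without and 0.31 FPKM with stretch. The 4H mean was 0.633 of the CON mean, and the log2 difference was -0.635 (standard error 0.05, adjusted p = 1.87e-05 by limma). Klf13 (ENSMUSG00000052040, chr7:63886351-63938915, minus strand), a factor known from T lymphocytes and the heart, was at 13.3, 13.9 and 13.3 FPKM in the unstretched libraries and at 15.5, 15.1 and 15.0 FPKM in the stretched libraries. This rise of 0.165 on the log2 scale (standard error 0.05, adjusted p = 0.0194) was the smallest of those that passed. It was no longer past the threshold without CON replicate 1, CON replicate 3 or 4H replicate 1 (adjusted p of 0.059, 0.0613 and 0.0612), and the adjusted p ranged from 0.00941 to 0.0613 over the 16 alternatives. Klf9 was the more abundant of both in the CON group, at 1.23, 1.18 and 1.21 times the FPKM of Klf13, and the less abundant in the 4H group, at 0.655, 0.668 and 0.710 times.

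The Klf9 promoter is shown because Klf9 fell most among the 10 genes on the log2 scale. Its window is also the only 1 of the 9 with a match to the AP-1 pattern TGANTCA.
Klf9 promoter, chr19:23140976-23141225, plus strand: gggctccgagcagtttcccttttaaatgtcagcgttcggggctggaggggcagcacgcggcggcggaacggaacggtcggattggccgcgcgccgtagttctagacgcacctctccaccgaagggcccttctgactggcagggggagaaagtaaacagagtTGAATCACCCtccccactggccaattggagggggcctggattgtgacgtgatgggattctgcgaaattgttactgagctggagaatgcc

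The match to the AP-1 pattern, which allows any base at N, reads TGAATCA. It lies at -89 and shares its last bases with the CACCC match at -84. Matches to this pattern were in 6.75% of all windows. The Klf9 window held no GC box, as the single exception among the 9. A SMAD element was found in 1 of the 9 windows, that of Klf3, and in 17.1% of all windows.

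Glucocorticoid-responsive genes were examined beside Klf9. Of 11 listed, 10 could be tested, of which 3 rose, 4 fell and 3 did not pass. The median log2 fold change was -0.18, and of all genes tested 22.6% rose and 24.1% fell. Sgk1, a kinase of ion transport, passed the fold threshold as well and was higher in the 4H group, at 46.99 ± 0.79 and 125.9 ± 3.40 FPKM (adjusted p = 6.3e-08 by limma, log2 fold change 1.41). Fkbp5 and Tsc22d3 fell by 0.16 and 0.21 on the log2 scale (adjusted p of 0.0473 and 0.0238 by limma). The others that fell were Mt2, a metallothionein, with -0.71, and Ddit4, an inhibitor of mTORC1, with -0.72 on the same scale, and the others that rose were Dusp1, a MAP kinase phosphatase, with 0.97, and the clock gene Per1, with 0.35. All but Sgk1 were picked once their values had been seen. The gene of the glucocorticoid receptor, Nr3c1, also named afterwards, was at 32.3 ± 2.57 and 29.4 ± 0.68 FPKM and did not pass (adjusted p = 0.105). Receptor activity, and its part in the change of Klf9, was not tested.

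Klf3 (ENSMUSG00000029178, chr5:64803388-64832901, plus strand), a repressor that recruits CtBP and is known at the muscle creatine kinase promoter, was at 13.5, 13.5 and 12.2 FPKM in the unstretched libraries and at 13.9, 13.5 and 14.2 FPKM in the stretched libraries. The groups overlapped, and the log2 difference was 0.08 (95% interval -0.05 to 0.21, adjusted p = 0.272 by limma). Exons of Klf3 overlap those of 1 gene on the other strand. Of 17 genes for partners and turnover of KLF proteins, all were tested, 5 rose, 5 fell and 7 did not pass. The median log2 fold change was 0.05, and of all genes tested 22.6% rose and 24.1% fell. Kat2b, a histone acetyltransferase, rose from 7.10 ± 0.53 to 9.79 ± 0.39 FPKM (adjusted p = 0.00119, log2 fold change 0.44), and Fbxo32, a muscle ubiquitin ligase, from 1.68 ± 0.25 to 2.61 ± 0.05 FPKM (adjusted p = 0.00524, log2 fold change 0.52). Ctbp1, the partner of Klf3, was lower at 70.7 ± 0.56 FPKM in the 4H group than at 89.5 ± 3.30 FPKM in the CON group (adjusted p = 0.000109, log2 fold change -0.34), and Sin3a, the partner of the Klf9 and Klf10 group, was lower by 0.22 on the log2 scale (adjusted p = 0.0155). Their paralogs did not fall, with a log2 fold change of 0.16 for Ctbp2, which did not pass (adjusted p = 0.1), and a rise of 0.215 for Sin3b (adjusted p = 0.00689). These 4 genes were picked once their values had been seen.

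**Figure D3:**
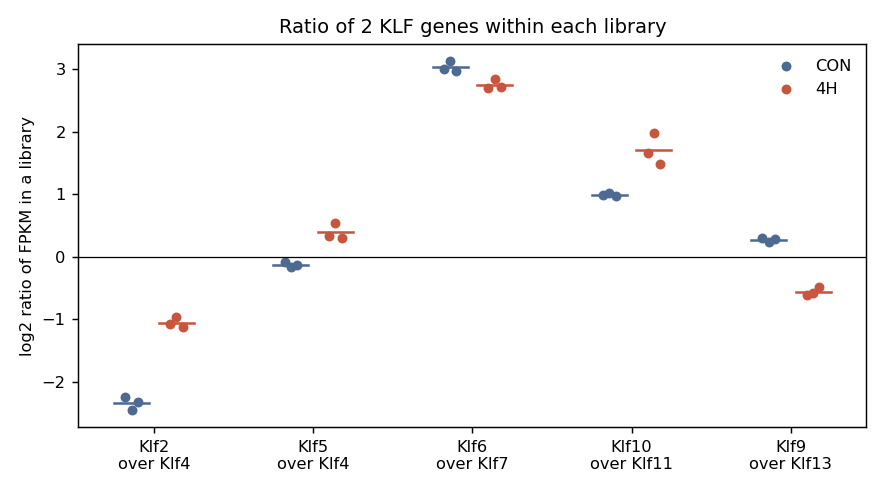
Log2 ratio of the FPKM of 2 KLF genes within each library, with points for 3 CON and 3 4H libraries and lines for group means. No pair overlaps between the groups, and Klf2 over Klf4 shifts most, from -2.34 to -1.05.

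Outside the 10 genes, 7 further KLF genes are in the table and 4 of them could be tested. Klf15, a regulator of amino acid and lipid metabolism in muscle that glucocorticoids induce, had the largest change of the whole family. It was at 2.42, 2.06 and 1.97 FPKM in the unstretched libraries and at 0.055, 0.071 and 0.095 FPKM in the stretched libraries. The CON mean was 29.1 times the 4H mean, and the log2 difference was -2.205 (standard error 0.13, adjusted p = 5.03e-06 by limma). Klf15 passed the filter only through the CON group. This value depends on the pseudocount because the 4H level is near 0, and it was -3.70 with 0.1 and -1.55 with 1 in place of 0.5. Klf16 was at 12.5 ± 1.06 and 12.6 ± 0.90 FPKM (SD, n = 3), a change of 0.01 on the log2 scale (95% interval -0.17 to 0.19). Klf8 and Klf12 were below 1 FPKM in every library and did not pass (adjusted p of 0.0948 and 0.362). Klf8, with a CON mean of 0.46 FPKM, passed the filter only through the 4H group. Klf12, with a 4H mean of 0.48 FPKM, passed it only through the CON group. Klf1, Klf14 and Klf17 were under the filter, with Klf14 at 0 in all 6 libraries.

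The Klf15 promoter is printed as that of the KLF gene with the largest change.
Klf15 promoter, chr6:90462326-90462575, plus strand: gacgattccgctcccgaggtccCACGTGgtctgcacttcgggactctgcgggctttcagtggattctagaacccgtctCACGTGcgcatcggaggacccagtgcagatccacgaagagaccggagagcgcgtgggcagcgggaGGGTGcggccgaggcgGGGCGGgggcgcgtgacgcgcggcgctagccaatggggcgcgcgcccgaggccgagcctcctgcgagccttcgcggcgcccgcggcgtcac

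It holds E-boxes at -228 and -172, a GC box at -91 and a CACCC match at -107, and is 72.0% GC. The glucocorticoid receptor binds longer and less regular sequences, which were not searched.

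The SP factors, which share the zinc finger domain of the KLF proteins and bind the same GC boxes, were read beside them. Of 9 listed, 6 could be tested, of which 2 rose, 0 fell and 4 did not pass, while 22.6% of all genes tested rose and 24.1% fell. Sp3 rose from 30.8 ± 1.402 to 34.4 ± 1.70 FPKM (adjusted p = 0.0354 by limma, log2 fold change 0.16) and Sp6 from 0.494 ± 0.09 to 0.880 ± 0.02 FPKM (adjusted p = 0.0187, log2 fold change 0.48). Sp6, with a CON mean under 0.5 FPKM, passed the filter only through the 4H group. Sp1, at 31.5 ± 1.00 and 29.7 ± 0.50 FPKM, did not pass (adjusted p = 0.123) and was named after its value was seen. Sp1 and Sp3 stood near the level of Klf4 and Klf5 in the unstretched group.

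Immediate early and serum-responsive genes were set beside the KLF genes because Klf2, Klf4, Klf6 and Klf10 are often induced with them. All 14 could be tested, of which 11 rose, 2 fell and 1 did not pass. The share of all genes tested was 22.6% for a rise and 24.1% for a fall. The median log2 fold change was 0.99, and that of the 10 KLF genes was 0.14. Both sets were chosen with earlier results of these data known, so their medians are not independent of those results. Both thresholds were met by 6 of the 14, against 3.88% of all genes tested. However, 2 of these 6, Fos and Fosb, had CON means under 0.5 FPKM and passed the filter only through the 4H group. Egr3, a zinc finger factor of the EGR family, went from 0.658 ± 0.03 to 3.35 ± 0.25 FPKM (log2 fold change 1.73) and Ier3, a survival gene, from 94.99 ± 7.77 to 289.4 ± 16.5 FPKM (log2 fold change 1.60). Fosb and Egr2 rose by 1.60 and 1.33 on the log2 scale (adjusted p of 4.85e-05 and 3.12e-05 by limma). The genes that fell were Atf3 and Myc, with log2 fold changes of -0.815 and -0.48, picked like Fos once their values had been seen. Whether these changes and those of the KLF genes depend on each other was not tested.

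Genes that the literature describes as KLF targets were also read. Of 17 listed, 15 could be tested, of which 10 rose, 2 fell and 3 did not pass. The median log2 fold change was 0.67, and of all genes tested 22.6% rose and 24.1% fell. Plau, the urokinase gene that Klf6 can activate, was at 8.42, 9.46 and 9.30 FPKM in the unstretched libraries and at 43.7, 39.35 and 38.4 FPKM in the stretched libraries (adjusted p = 1.99e-07 by limma, log2 fold change 2.10). Npnt, the nephronectin gene tied to ERK5 and the KLF factors in myoblast fusion, was at 16.2, 18.99 and 17.9 FPKM in the unstretched libraries and at 64.0, 62.3 and 64.4 FPKM in the stretched libraries (adjusted p = 2.09e-07, log2 fold change 1.82). Tagln, a smooth muscle gene on which Klf4 acts as a repressor, went from 8.86 ± 0.28 to 21.3 ± 1.86 FPKM (adjusted p = 3.76e-06, log2 fold change 1.22). The members that fell were Lgals3, known as a target of Klf3, by 0.31, and Bcat2, a branched-chain amino acid enzyme under Klf15, by 0.45 on the log2 scale (adjusted p of 1.72e-05 and 0.000315), both picked once their values had been seen. These genes have many other regulators, and the part of the KLF factors in their change was not tested.

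**Figure D4:**
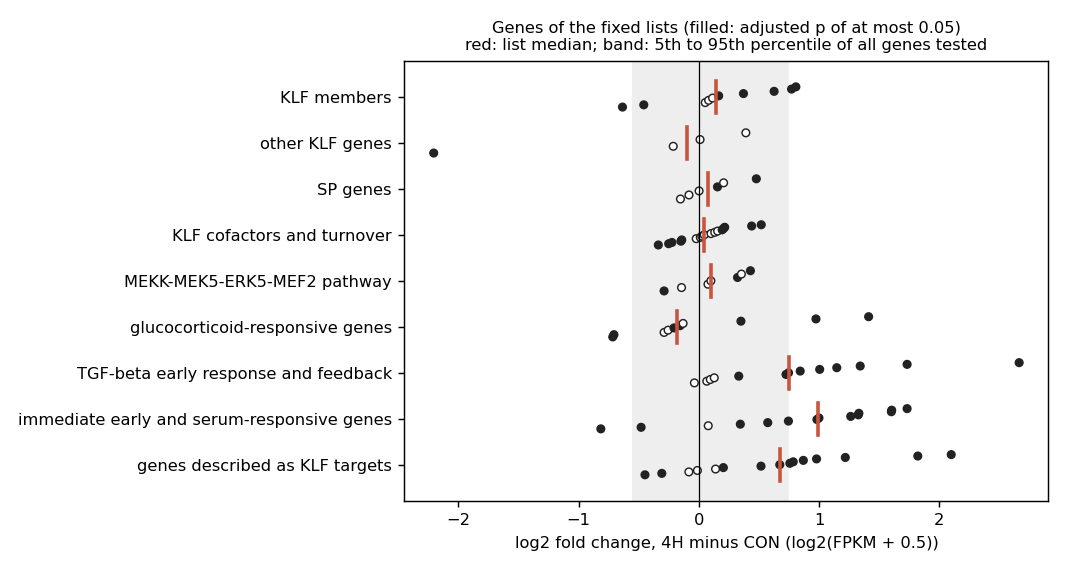
Log2 fold change (4H minus CON) of the tested genes of each list, with filled points at an adjusted p of at most 0.05, red bars for list medians and a grey band from the 5th to the 95th percentile of all genes tested (-0.55 to 0.74). The KLF genes lie on both sides of 0 with a median of 0.14, while the TGF-β, immediate early and KLF target lists have medians of 0.75, 0.99 and 0.67. All lists were chosen with earlier results of these data known.

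The genes whose values over the 6 libraries lay closest to those of Klf10 and Klf9 were found by Euclidean distance in log2(FPKM + 0.5) after subtraction of the CON mean. Among the nearest to Klf10 were Dio2, a thyroid hormone activating enzyme (distance 0.0745), Gfod1 (0.0745), Thbd, the thrombomodulin gene (0.0983), and Actb, the β-actin gene (0.104). Dio2, with a CON mean of 0.392 FPKM, passed the filter only through the 4H group. The log2 fold changes of these genes lay between 0.76 and 0.84. Nearest to Klf9 were Ets2, a transcription factor (0.0672), Pdzd8 (0.0711), Fbln2, a matrix glycoprotein (0.0784), Nfe2l2, the antioxidant factor NRF2 (0.0785), and Uap1l1 (0.0835), with log2 fold changes from -0.67 to -0.60. The nearest of the 10 was Klf2 for Klf10 (0.162) and Klf4 for Klf9 (0.320). With 2 groups of 3 libraries, such a distance reflects mainly the size of the group difference.

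Shared sequence between the KLF transcripts and those of other genes was measured, since reads from such stretches can be split. In GENCODE M21 (GRCm38), 0 of the 75-base stretches of 9 of the 10 genes recur in a transcript of another gene, and for Klf3 it was 1 of 11530. AUUUA pentamers, which mark many short-lived mRNAs, were counted in the 3′ untranslated region of 1 coding transcript a gene. There were 18 in Klf7, 8 in Klf9, 7 each in Klf3 and Klf6, 4 each in Klf5, Klf10 and Klf11, 3 in Klf13 and 1 each in Klf2 and Klf4, against a median of 1 over 11381 genes tested. Per kilobase, Klf7 had 2.87, Klf10 2.68 and Klf9 2.48, and Klf13 had 0.581, with a median of 1.22 over all genes. Klf13 and Klf7, the lowest and the highest per kilobase, both rose. Of the 2 genes that fell, Klf4 had 1.02 and Klf9 2.48 per kilobase. RNA stability was not measured, and its part in the changes was not tested.

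Markers of other cells were read in the same libraries. Their part in the KLF values was not tested. Of the 5 macrophage and leukocyte markers, 3 were tested (Cd68, Cd14 and Csf1r) and rose, but Csf1r passed the filter only through its level in the 4H group. The summed level of the list was 17.1 to 20.4 FPKM in the unstretched libraries and 32.2 to 35.9 FPKM in the stretched libraries. Csf1r, a growth factor receptor, was listed at 0, 0 and 0.027 FPKM without stretch, and stretched libraries had 1.48, 0.966 and 0.792 FPKM. Cd68, a lysosomal protein, went from 7.57 ± 0.89 to 16.4 ± 1.29 FPKM. The defining leukocyte genes Ptprc and Adgre1 were at 0 in all 6 libraries. The 6 endothelial markers were under the filter and summed to 0.101 to 0.122 FPKM without and 0.254 to 0.387 FPKM with stretch. Epithelial markers, likewise under the filter, summed to 0.040 to 0.117 FPKM and 0.319 to 0.553 FPKM, so neither sum overlapped between the groups. Adipocyte markers summed to at most 0.137 FPKM in any library. Of the 7 myoblast markers, 6 were tested, 4 rose, 1 fell and 1 did not pass, and the list summed to 123.7 to 125.7 FPKM in the unstretched libraries and to 150.9 to 158.8 FPKM in the stretched libraries. Myod1, the myogenic determination factor, rose from 5.13 ± 0.57 to 18.2 ± 0.74 FPKM (log2 fold change 1.74) and Msc, a repressor of myogenic factors, from 0.623 ± 0.18 to 2.33 ± 0.36 FPKM (log2 fold change 1.34). Myf5, a myogenic factor of undifferentiated myoblasts, was the marker that fell, from 15.8 ± 0.85 to 9.82 ± 1.13 FPKM (log2 fold change -0.67).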

How the data were processed

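RNA-seq was measured in 3 CON and 3 4H libraries of C2C12 cells. Per the labels, mRNA was selected by poly(A), libraries kept the strand, paired ends were read, and the build was mm10. What the authors deposited is FPKM for each gene and library. Which aligner and counter they used, and whether counting used the strand, is not given in the sources. Because FPKM is not a count, the DESeq2 test of the study was replaced by limma 3.58.1 in R 4.3.3 (trend on mean expression, two-sided, Benjamini-Hochberg over all genes tested, 0.5 added before log2, mean of 0.5 FPKM or more). The step was tested on simulated data. Exact permutation tests used SciPy 1.17.1, and plots matplotlib 3.10.9. Gene positions and transcripts came from GENCODE M21 and promoters from RefSeq, both GRCm38. Of the 10 genes, 8 had a promoter there. Protein sequences were not used here.

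The 10 genes and all lists were chosen with earlier results of these data known. Named were the 10 genes, other KLF and SP genes that passed, of each other list the members past both thresholds (at most 4) or else the 2 largest changes with an adjusted p of at most 0.05, and the 5 genes nearest to the largest rise and fall. Some genes that the rule takes are not reported here. Genes named outside this rule are marked. Klf8, Klf12, Klf16 and KLF genes under the filter were named outside it to complete the family, and Des, Myf5, Myog, Cd14 and markers at 0 as checks of the cell type. Replicate numbers were not taken to pair the libraries. Alternatives were 0.1 or 1 as pseudocount, filters at 1 and 5 FPKM or none, a replicate block, no trend, TPM, median-of-ratios scaling, quantile normalization and each library left out. FPKM holds no depth, so precision rests on the spread of 3 libraries.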

Additional observations from a re-analysis of the deposited data

How the results depend on the processing

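Klf2, Klf4, Klf6, Klf7, Klf9 and Klf10 kept their direction and their side of an adjusted p of 0.05 under all 16 alternatives, and Klf3 and Klf5 stayed on the other side of it under all 16. With 1 library left out in turn, the log2 fold change of Klf13 ranged from 0.151 to 0.186 and that of Klf11 from 0.046 to 0.233. The number of the 10 genes past an adjusted p of 0.05 was then 6 to 8, and it was 7 under every other alternative. None of the 10 passed both thresholds under any alternative. The number of all genes past both thresholds was 450, and it was 245 when only genes averaging 5 FPKM or more were tested and 703 with libraries rescaled to TPM, where 12457 genes were tested. The ratio of the summed FPKM of the 10 genes, checked after the data were seen, was 1.16 with TPM and 1.126 to 1.143 with 1 library left out. The differences between groups in the log2 ratios of the 5 pairs kept their sign under all 7 alternatives each. With the replicate number as a replicate block, 7 of the 10 genes passed and 4964 of all genes, against 5409 without it. Deviations of same-numbered libraries had correlations of 0.025, -0.093 and -0.126, so the numbers were treated as names only. By title number, 4H replicate 2 (4H3) would instead go with CON replicate 3 (C3), with a correlation of 0.176, and 4H replicate 3 (4H4) with none. No block was fitted on title numbers. Depth is unknown, so a missed change in low genes such as Klf8 and Klf12 cannot be told from few reads.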
